A study of Mus musculus with 3 samples.

Results

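The genes described here encode 6 proteins used to sort or to follow mouse blood stem cells: Slamf1, Cd48, Cd34, Ly6a, Procr and Abcg2. Their chromatin was read from regions called for H3K27ac, a histone acetylation of promoters and enhancers in use, and for H3K4me1, a histone methylation that marks enhancers and the flanks of promoters. Members were chosen by position: every called region of either mark that overlapped a fixed window around a gene on the mouse build mm9. The windows were chr1:173660000-173760000 for Slamf1, chr1:173590000-173659999 for Cd48, chr1:196740000-196810000 for Cd34, chr15:74800000-74850000 for Ly6a, chr2:155550000-155610000 for Procr and chr6:58510000-58670000 for Abcg2. They held 134 of 248440 regions, namely 52 of 93413 H3K27ac regions and 82 of 155027 H3K4me1 regions. A window can hold more than its own gene, and no region below is assigned to a promoter or an exon, because no mm9 gene annotation was used here.

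The cells were primary hematopoietic stem cells of C57BL/6 mice, 24 months old, taken from bone marrow, sorted as SP-KSL-CD150+ and profiled by chromatin immunoprecipitation sequencing. The series gives 50000 to 100000 such cells as the starting material of the histone libraries, without saying whether animals were pooled. H3K27ac was precipitated with the antibody Abcam ab4729 and H3K4me1 with Abcam ab8895, each in 1 library, and an input library of the same cells was not analysed here. Each library is labelled a technical replicate of biological replicate 1, so there is no replicate spread, no comparison below has a test, and orders of levels are descriptions. No other age, treatment or cell type was analysed here.

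Stem cells are purified by combining surface antigens with dye efflux. KSL is the usual name for bone marrow cells with c-Kit and Sca-1 and without lineage antigens, and SP usually stands for side population, the cells that pump out a DNA-binding dye. CD150, the product of Slamf1, is a self-binding receptor of the SLAM family that is kept on the most primitive cells. CD48, a SLAM relative anchored to the membrane by a lipid, is carried by most other blood cells and is usually absent from the most primitive ones. CD34, a sialomucin, is low on the most primitive cells of adult mice and higher on their early progeny. Sca-1 is the lipid-anchored product of Ly6a. Procr encodes the endothelial protein C receptor, a strong stem cell antigen, and Abcg2 encodes the transporter behind the dye efflux. Slamf1, Ly6a and Abcg2 therefore belong to the gate itself, and acetylation at them is a check of the label and not a finding. Each of these 3 windows held an acetylated region of 8.86-fold or more, but so did Cd34 and Procr outside the gate. Of all H3K27ac regions, taken singly, 9.72% reached that fold. Each of the 3 windows held 6 to 12 H3K27ac regions, and the share of like windows with such a region was not computed. The check is therefore a weak one. The gene of c-Kit and lineage markers were not examined here.

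Slamf1 and Cd48 are neighbours in the SLAM gene cluster on chromosome 1 and differed most in acetylated length among the 6 windows. The Procr window was the one most covered by H3K4me1. For these reasons the 250 bases before the start sites of Slamf1, Cd48 and Procr are shown. They run 5′ to 3′, from RefSeq on the build GRCm38.p6 with the gene on the plus strand. Capitals mark CG, the dinucleotide that is dense in CpG island promoters. Since the regions are on mm9, these bases were not placed against them.
Slamf1: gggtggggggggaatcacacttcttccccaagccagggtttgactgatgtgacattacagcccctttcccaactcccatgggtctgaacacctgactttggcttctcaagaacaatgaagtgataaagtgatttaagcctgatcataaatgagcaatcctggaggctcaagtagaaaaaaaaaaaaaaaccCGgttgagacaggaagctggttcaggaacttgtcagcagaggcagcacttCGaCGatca
Cd48: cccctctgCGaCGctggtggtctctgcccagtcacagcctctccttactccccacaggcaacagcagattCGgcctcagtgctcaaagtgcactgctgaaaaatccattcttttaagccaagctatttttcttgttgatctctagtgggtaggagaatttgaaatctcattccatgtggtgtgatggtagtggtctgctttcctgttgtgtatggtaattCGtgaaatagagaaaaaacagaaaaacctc
Procr: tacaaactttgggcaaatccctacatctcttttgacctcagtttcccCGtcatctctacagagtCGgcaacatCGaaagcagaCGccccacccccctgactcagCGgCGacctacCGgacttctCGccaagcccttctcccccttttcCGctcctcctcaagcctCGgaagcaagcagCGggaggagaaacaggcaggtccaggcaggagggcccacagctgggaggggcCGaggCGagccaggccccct
The Slamf1 sequence held 3 CG, the Cd48 sequence 4 and the Procr sequence 13, and the median over 32851 promoter entries in the same table was 6 (quartiles 2 and 16). By CG count, the Slamf1 and Cd48 sequences were alike. A link between CG count and acetylation was not tested. Entries were at hand for 5 of the 6 genes. Cd34 held 6 CG, and the 3 entries of Abcg2, which stand for alternative starts, held 3, 10 and 23. Of 3 motifs searched on both strands with overlaps allowed, AGATAA of GATA factors matched none of these 7 sequences and 9.99% of all entries. GGAAGT of ETS factors matched the first and the second Abcg2 entry and 19.7% of all entries. TGTGGT of RUNX factors matched Cd48 and the first Abcg2 entry and 14.0% of all entries. A match describes letters and is not a bound site.

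Called regions were unevenly spread over the 6 windows, and 5 of them held 6 or more acetylated regions. The exception was Cd48, with 1 H3K27ac region and 11 H3K4me1 regions. The Procr window held 13 H3K27ac and 17 H3K4me1 regions, Slamf1 12 and 16, Cd34 12 and 11, Abcg2 8 and 16, and Ly6a 6 and 11. The map of called regions shows where they lay. Per Mb this was 102 H3K27ac and 161 H3K4me1 regions over the 6 windows, against 37.4 and 61.5 over the 19 autosomes. Windows around genes are not typical of the genome, so the difference was not shown to be particular to these genes.

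**Figure D1:**
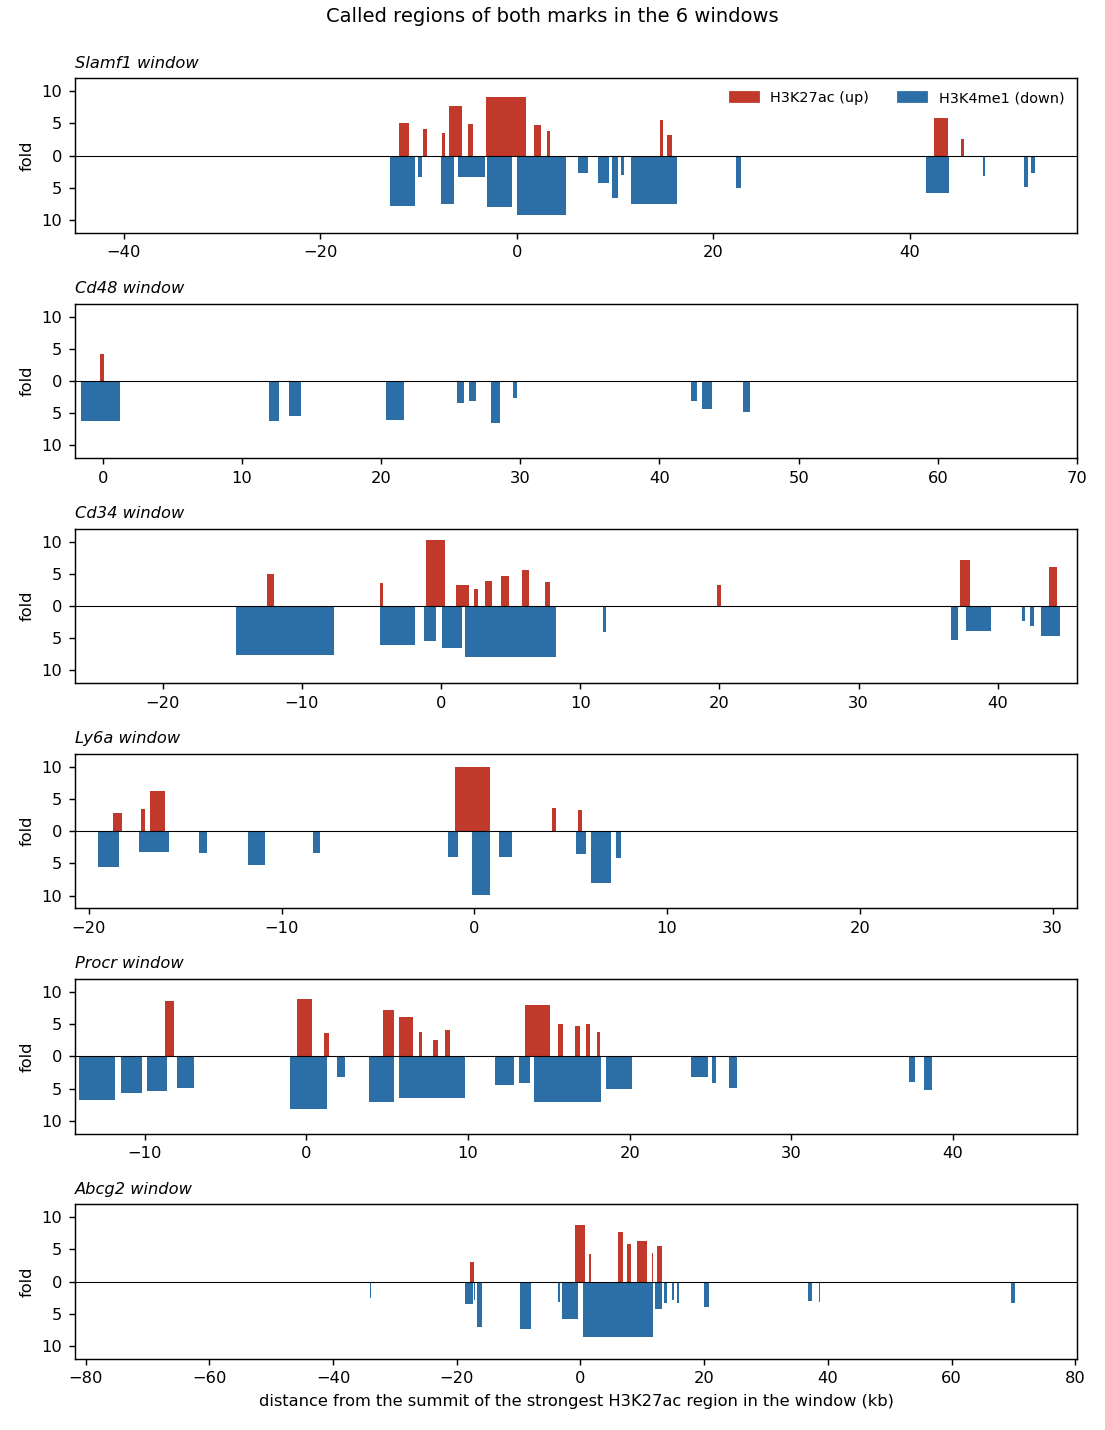
Called regions in each window, with H3K27ac drawn upward in red and H3K4me1 downward in blue. The horizontal axis is the distance in kb from the summit of the strongest H3K27ac region of the window, and bar height is the authors' fold. Acetylated regions bunch over wide H3K4me1 regions at Slamf1, Cd34, Procr and Abcg2, and Cd48 has 1 acetylated region at the left border.

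By acetylated length the order was Slamf1 with 11.2 kb, Cd34 with 6.75 kb, Procr with 6.70 kb, Abcg2 with 6.55 kb, Ly6a with 3.70 kb and Cd48 with 0.303 kb. The lengths of Cd34, Procr and Abcg2 lay close together, and with 1 library their order has no replicate check. As a share of the window, H3K27ac covered 11.2% at Procr and at Slamf1, 9.64% at Cd34, 7.40% at Ly6a, 4.10% at Abcg2 and 0.433% at Cd48, against 2.24% of the autosomes. H3K4me1 covered 39.8% at Procr, 32.7% at Cd34, 26.4% at Slamf1, 16.6% at Ly6a, 14.3% at Abcg2 and 12.5% at Cd48, against 6.95% of the autosomes. So H3K4me1 exceeded the autosomal share in each window, and H3K27ac did so in each window but Cd48. The windows differ in length from 50 to 160 kb, which enters these shares.

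**Figure D2:**
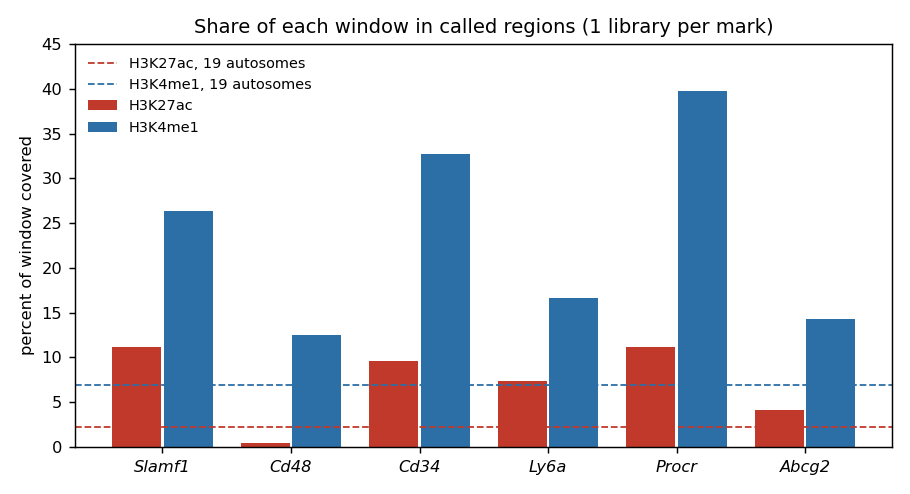
Percent of each window inside called H3K27ac (red) and H3K4me1 (blue) regions, with dashed lines for the 19 autosomes (2.24% and 6.95%). Each bar is 1 library and has no error bar. The red bar of Cd48, at 0.433%, lies below its line, and the other red bars lie above it.

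To allow for length, the autosomes were divided into tiles as long as each window. As much acetylated length as in the Slamf1 window was found in 4.13% of tiles, and as much as in the Procr window in 4.71%. The values were 5.88% for Cd34, 9.03% for Ly6a, 18.4% for Abcg2 and 47.3% for Cd48. For H3K4me1 the same shares were 2.49% for Procr, 4.12% for Cd34, 6.20% for Slamf1, 14.1% for Ly6a, 17.4% for Abcg2 and 19.3% for Cd48. As called, Procr, Cd34 and Slamf1 ranked higher than Ly6a, Abcg2 and Cd48 for both marks. The order of tile shares was the same with shifted tiles. With −log10 q of at least 5 it was also the same, though Cd48 then had no H3K27ac region. By percent of the window covered by H3K27ac, a measure not matched for length, the order depended on the settings. With windows widened by 20 kb, Ly6a was highest at 13.6%, against 12% at Slamf1, 9.56% at Cd34 and 7.54% at Procr. With −log10 q of at least 10, Ly6a (5.21%) exceeded Cd34 (3.73%). Tile shares were not computed at these 2 settings. Tiles without a called region, assembly gaps included, were kept and made up 25.5 to 50.5% of all tiles, depending on mark and length.

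The Slamf1 window was the most acetylated by length, and its acetylation was gathered in 1 stretch. Of its 12 H3K27ac regions, 10 lay within 27.7 kb, from 173691999 to 173719723, with 9.54 kb acetylated and H3K4me1 on 75.5% of the stretch. The strongest region was also the widest, chr1:173700806-173704913, with 4108 bp and a summit 9.16-fold over the local background. Fold is the authors' own value from their peak caller throughout, and 9.17% of all H3K27ac regions reached that fold. Width set this region apart more than fold did, since 0.413% of all H3K27ac regions were as wide. The next were chr1:173697072-173698393 at 7.68-fold and chr1:173746420-173747843 at 5.91-fold, the latter in a separate pair of regions further right. Summit reads in the window ran from 10 to 30 with a median of 15.5.

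H3K4me1 at Slamf1 lay on either side of the strongest acetylation summit. Its strongest and widest region, chr1:173703935-173708920, reached 9.27-fold over 4986 bp, and 2.31% of all H3K4me1 regions were as strong. The second, chr1:173700936-173703468, reached 7.94-fold. The acetylation summit at 173703948 fell just inside the first of these, 13 bp from its end.

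At Cd48 the enhancer methylation was present while acetylation was called at 1 place. Its H3K27ac region, chr1:173590797-173591099, was 303 bp wide and 4.14-fold, with 13 summit reads. That is the median read number of the whole H3K27ac list. It lay within 2 kb of the left border of the window, inside the widest H3K4me1 region, chr1:173589430-173592236, of 2807 bp and 6.32-fold. This H3K4me1 region crosses the border toward the side of Slamf7 in the gene table. The H3K27ac region was the last in a run of 3 acetylated regions that began at 173578729, outside the window. Slamf7 was not separated from Cd48 here. The strongest H3K4me1 region was chr1:173618870-173619495 at 6.53-fold with 30 reads, and chr1:173602957-173603645 equalled the 6.32-fold of the widest. In all, 1 of the 11 H3K4me1 regions met H3K27ac (9.09%, exact 95% interval 0.230 to 41.3%), an interval that holds the 33.6% of the whole list. With 11 neighbouring regions of 1 library this interval is wide and covers counting error only, so the share of regions cannot decide whether Cd48 differs.

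By length, the contrast within the SLAM pair was in acetylation more than in H3K4me1. The acetylated length was 3.47% of the H3K4me1 length at Cd48 and 42.5% at Slamf1, and it was 44.5% at Ly6a, 29.5% at Cd34, 28.7% at Abcg2 and 28.1% at Procr. Of 6824 autosomal tiles with at least as much H3K4me1 as the Cd48 window, 136 (1.99%) had as little H3K27ac. The median H3K27ac length of all 6824 was 4656 bp. Such tiles can hold more H3K4me1 than the window, which lowers this share. For the other windows it was 44.7% at Slamf1, 43.9% at Ly6a, 20.7% at Cd34, 16.9% at Abcg2 and 15.4% at Procr. A stretch of 53.5 kb without a region of either mark, from 173637485 to 173691011, separated the marked parts of the windows of these neighbours. No H3K27ac summit of fewer than 8 reads is in the list, so weaker acetylation at Cd48 was not detectable at this depth. In sorted cells taken in bulk, fewer cells with a mark and less mark per cell cannot be told apart.

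CD34 protein, not measured here, is usually low on the most primitive adult cells. The Cd34 window held 12 acetylated regions, as did the longer Slamf1 window, which is 171 and 120 per Mb. The strongest acetylated region of all 6 windows lay here, chr1:196764233-196765567, with 10.3-fold, 34 summit reads and 1335 bp, the widest of the window. That fold was reached by 7.33% of all H3K27ac regions. The next were chr1:196802575-196803282 at 7.09-fold and chr1:196808967-196809537 at 6.03-fold, toward the right border. The local background of the last was 1.32 times the genome-wide level. Fold in the window had a median of 4.28 and a lowest value of 2.66, where the summit held 8 reads.

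The Cd34 window also held broad H3K4me1 regions. The strongest, chr1:196767020-196773577, was 8.0-fold over 6558 bp and met 6 H3K27ac regions. The widest, chr1:196750567-196757592, was 7.67-fold over 7026 bp and met 1. The acetylation summit at 196765291 lay in a gap of 387 bp between other H3K4me1 regions, of 919 bp at 5.48-fold and of 1482 bp at 6.53-fold. Acetylated regions of the window formed a run of 32.6 kb with 10 regions and a second that passed the right border and ended at 196825206. Plxna2 and Cd46 neighbour Cd34 in the gene table and were not separated from it here.

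The Ly6a window, the shortest at 50 kb, held 6 acetylated regions, which is 120 per Mb, as at Slamf1. Of these, 1 was strong. This region, chr15:74818714-74820531, reached 10.05-fold with 33 summit reads over 1818 bp, and 7.75% of all H3K27ac regions were as strong. To its right, chr15:74823727-74823961 was 3.55-fold and chr15:74825073-74825291 was 3.25-fold. Near the left border lay chr15:74800961-74801412 at 2.78-fold, chr15:74802436-74802623 at 3.50-fold and chr15:74802895-74803682 at 6.21-fold. These left regions belonged to a run of 22 acetylated regions that began at 74746372, outside the window. Ly6i and Ly6e are the nearest coding genes on the left in the gene table, and were not separated from Ly6a here.

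The strongest H3K4me1 region of all 6 windows also lay at Ly6a, chr15:74819618-74820543, with 9.90-fold and 46 summit reads. It overlapped the right part of the strong acetylated region, whose summit lay 99 bp inside it. The second, chr15:74825786-74826803, was 8.0-fold and met no H3K27ac region. The widest, chr15:74802294-74803883, spanned 1590 bp at 3.21-fold, with a local background 2.06 times the genome-wide level. The median width of the H3K4me1 regions at Ly6a was 677 bp, close to the 687 bp of the whole list.

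Procr had the densest marks. It held 217 H3K27ac and 283 H3K4me1 regions per Mb, and its 13 acetylated regions all lay within 26.9 kb. The strongest were chr2:155562754-155563676 at 8.86-fold and chr2:155554580-155555113 at 8.70-fold, each with 29 summit reads. The third was the widest, chr2:155576816-155578372, with 7.98-fold over 1557 bp. The median fold of the window was 5.02, below the 5.76 of Abcg2 and above the 3.86 of the whole list. The strongest H3K4me1 region, chr2:155562287-155564599, was 8.21-fold and contained the strongest acetylated region. The second and widest, chr2:155577361-155581550, was 7.16-fold over 4190 bp and met 5 H3K27ac regions. All 13 acetylated regions of the window met H3K4me1. Edem2 and Mmp24 neighbour Procr in the gene table and were not separated from it here.

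Abcg2 had its acetylation gathered in a small part of the longest window, while its H3K4me1 regions spanned 104 kb. Of its 8 acetylated regions, 7 lay within 14.0 kb, from 58589880 to 58603866, where H3K4me1 covered 91.9%. The strongest, chr6:58589880-58591398, was 8.86-fold with 29 summit reads. It was followed by chr6:58596705-58597539 at 7.68-fold, chr6:58599847-58601406 at 6.26-fold over 1560 bp, the widest, and chr6:58598162-58598825 at 5.91-fold. The others of the run were chr6:58603120-58603866 at 5.61-fold, chr6:58602224-58602430 at 4.43-fold and chr6:58592012-58592410 at 4.34-fold. The region apart from the run, chr6:58572822-58573445, was 3.06-fold, and its local background was 2.19 times the genome-wide level. A single H3K4me1 region, chr6:58591138-58602359, spanned 11222 bp at 8.64-fold and met 6 H3K27ac regions. It was the widest region of either mark in the 6 windows. The second by fold, chr6:58580958-58582639, was 7.37-fold and met none. To the left of the marks, the window had no called region for 46.6 kb.

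The highest folds of the whole lists, 43.4 for H3K27ac and 15.4 for H3K4me1, come from far more regions than the 6 windows held. Over the 6 windows, median folds exceeded those of the whole lists, 3.86 for H3K27ac and 4.12 for H3K4me1. Summits held a median of 16 H3K27ac and 24 H3K4me1 reads, against 13 and 20. H3K27ac fold ran from 2.51 to 10.3 with a median of 4.73, and 24 of 52 regions (46.2%, exact 95% binomial interval 32.2 to 60.5%) were of 5-fold or more, against 28.8% of all H3K27ac regions. H3K4me1 fold ran from 2.36 to 9.90 with a median of 4.57, and 35 of 82 regions (42.7%, interval 31.8 to 54.1%) were of 5-fold or more, against 34.1% of the list. The background lay below the interval for H3K27ac and inside it for H3K4me1. H3K4me1 regions of 2 kb or wider numbered 16 of 82 (19.5%, interval 11.6 to 29.7%), against 13.8%. A local background exceeding the genome-wide level by over 5% was found at 13 of 52 H3K27ac summits, against 26.2% of the list, and at 33 of 82 H3K4me1 summits, against 36.8%. Both shares, 25% and 40.2%, were near their background. Intervals cover counting error only, since neighbouring regions of 1 library are not independent and reads carry no molecular identifiers. Joined over gaps of up to 1 kb, the 52 H3K27ac regions became 28, so the intervals are no test of a difference from the list.

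**Figure D3:**
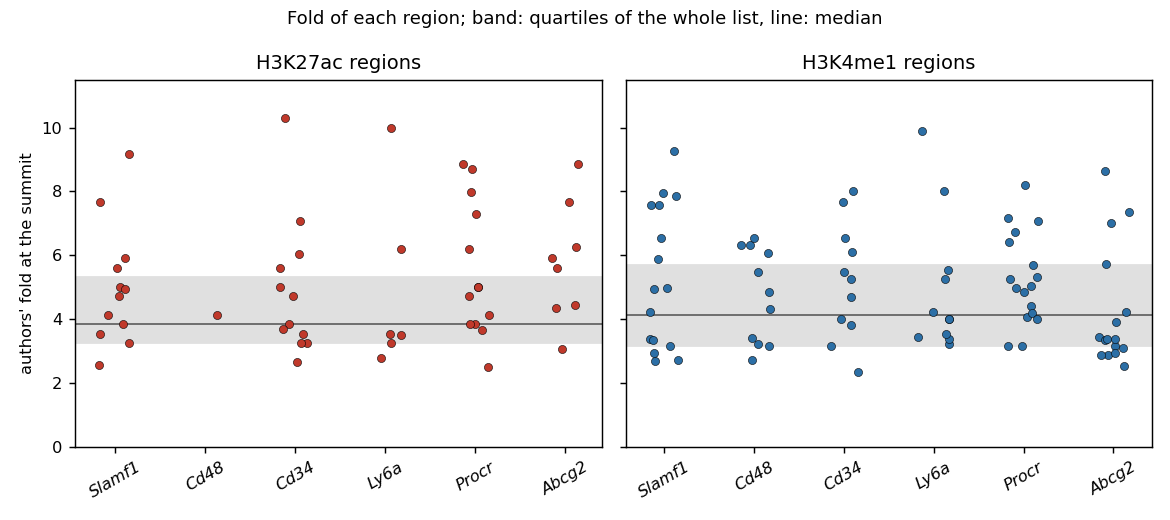
The authors' fold at the summit of each region by window, 1 point per region, for H3K27ac (left) and H3K4me1 (right). The grey band gives the quartiles of the whole list and the line its median (3.86 and 4.12). The highest points are Cd34 at 10.3 for H3K27ac and Ly6a at 9.90 for H3K4me1.

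As called, most acetylated regions of these windows overlapped H3K4me1. H3K4me1 covered 22.2% of the 6 windows together, against 6.95% of the autosomes, and the part of this in the shares below was not tested. Of the 52, 48 overlapped an H3K4me1 region by 1 bp or more (92.3%, interval 81.5 to 97.9%), against 71.7% of all H3K27ac regions. The count was 13 of 13 at Procr, 8 of 8 at Abcg2, 11 of 12 at Cd34, 10 of 12 at Slamf1, 5 of 6 at Ly6a and 1 of 1 at Cd48. By length, 83.6% of the acetylated bases lay in H3K4me1, against 65.9% of the whole list. The summit itself lay inside H3K4me1 for 42 of 52 regions (80.8%, interval 67.5 to 90.4%), against 58.2%. Without the regions of such raised background, in either list, the first share fell to 66.7% and that of the whole list to 50.2%. In the other direction the shares were near those of the whole list: 30 of 82 H3K4me1 regions met H3K27ac (36.6%, interval 26.2 to 48.0%), against 33.6%. The H3K4me1 summit lay inside H3K27ac for 14 of 82 (17.1%, interval 9.66 to 27%), against 16.8%. Strength moved with overlap: of all H3K27ac regions of 5-fold or more, 92.1% met H3K4me1, as did 24.0 of the 24 in the windows, and the part of strength in the first shares was not tested.

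The 10 acetylation summits outside H3K4me1 were of 2 kinds. At 6 of them H3K4me1 lay within 1 kb on both sides, leaving a gap of 200 to 807 bp. These included the strongest region of Cd34 and that of Abcg2, whose gap was 807 bp. They also included chr2:155554580-155555113 of Procr with a gap of 639 bp, chr2:155576816-155578372 of Procr with 215 bp and chr1:196802575-196803282 of Cd34 with 534 bp. The sixth was the weak Abcg2 region apart from the run, with 200 bp. The other 4 summits, at Slamf1, Cd34 and Ly6a, ran from 2.55-fold to 4.14-fold and met no H3K4me1 region. At Slamf1, Ly6a, Procr and Cd48 the strongest summit lay inside H3K4me1, at 13, 99, 1027 and 1255 bp from the nearer end.

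**Figure D4:**
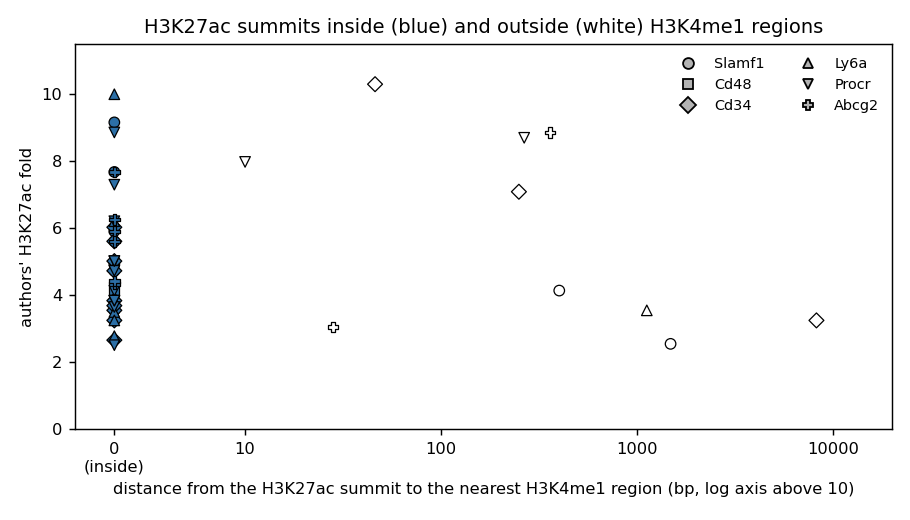
The authors' H3K27ac fold of each of the 52 acetylated regions against the distance from its summit to the nearest H3K4me1 region in bp, on a log axis above 10. Blue points at 0 are summits inside H3K4me1 and white points are the 10 outside. White points above 7-fold lie within 359 bp of H3K4me1, and the 4 farthest are all at or under 4.14-fold.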

How the data were processed

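Chromatin immunoprecipitation libraries for H3K27ac and H3K4me1 were used, 1 each, with groups taken from the sample titles. Per the submitters' processing notes, the tools were Bowtie2 2.0.6 and MACS2 2.0.10.20131216 and the build mm9. Caller options and control are not given in the sources used here. Per library, the authors deposited 1 peak list with the fold ratio of summit pileup to local background, −log10 p, −log10 q and a score, which is −log10 q times 10 and was not used. The lowest deposited −log10 q was 1.30 and 1.31. Coordinates count from 1.

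Summit reads and local background were solved from fold = (reads + 1)/(background + 1) and a Poisson p, an assumed form that gave whole reads within 0.001 of the deposited −log10 p at all 93413 and 155027 summits. The genome-wide background was 2.38 and 3.75 reads, and the weakest summits held 8 and 10. Tiles ran to the last called region of each autosome. Acetylated runs join regions over gaps of up to 12.5 kb. Intervals are Clopper-Pearson. The functions were tested on simulated data.

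Of each window, every H3K27ac region is named where there were 8 or fewer, otherwise the 3 of highest fold and the widest, and of H3K4me1 the 2 of highest fold and the widest. Genes, windows and lists were chosen with earlier results of these data known. The gene table, GRCm38.p6, gave names and neighbours. Calculations used scipy 1.17.1, pandas 2.3.3 and numpy 2.4.6 under Python 3.11.15, and plots matplotlib 3.10.9.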

Additional observations from a re-analysis of the deposited data

How the results depend on the processing

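Of 124 alternative values, 102 stayed within 1.5 times the reported value or inside the interval of the share, and 22 moved. These values are not independent checks, and part of the 102 had no room to move. No H3K27ac region crossed a window border, so keeping only regions wholly inside left all H3K27ac values as they were. Limits on q left the highest fold unchanged wherever a region remained. H3K4me1 cover with equal numbers of regions repeated that at the limit of 5. The 52 H3K27ac regions became 30 with −log10 q limited to 5 or more, 15 with 10 or more and 28 when joined over 1 kb. The 82 H3K4me1 regions became 37 at 10, 49 without raised backgrounds and 40 when joined. The share of H3K27ac regions with H3K4me1 (92.3%) was 100% at 5 and 66.7% without raised backgrounds, against 85.3% and 50.2% of the whole lists. That of H3K4me1 regions with H3K27ac (36.6%) was 50% within 1 kb and 50.8% with equal numbers of regions, against 46.1% and 48.1%. That of summits inside H3K4me1 (80.8%) was 60% at 10 and 59.0% without raised backgrounds, against 43.7% and 39.6%. H3K27ac cover was 5.43% at Slamf1, 3.73% at Cd34 and 2.45% at Abcg2 with the limit of 10, and 6.09% at Cd34 with 5. At Cd48 it was 0% at 5 and 10 and 0.789% with windows widened by 20 kb, which gave 13.6% at Ly6a. H3K4me1 cover at 10 was 8.17% at Cd48 and 7.84% at Ly6a. Stricter limits keep fewer regions by construction, and why the other values moved was not tested. With either limit Cd48 had no highest fold, and with that of 5 no tile share. No paired analysis was possible because the marks were profiled in a single library each.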

Other observations

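Marks just outside the windows differed between their sides. In the 20 kb to the right of the Slamf1 window, where Cd84 is the next coding gene in the gene table, H3K27ac covered 27.9% and H3K4me1 49.7%. These held chr1:173769660-173771445 with 10.7-fold H3K27ac and chr1:173771710-173781174 with 10.5-fold H3K4me1 over 9465 bp. Both folds exceeded the highest inside any of the 6 windows for their mark. In the 20 kb to the left of the Ly6a window, H3K27ac covered 42.8% and H3K4me1 61.6%, with the strongest acetylation at chr15:74797753-74799127, 12.4-fold with 41 summit reads. To the right of Ly6a neither mark had a region. The run of acetylation that reaches into the Ly6a window from the left spanned 57.3 kb with 23.8 kb acetylated, and 0.513% of 30221 such runs held as much. To the left of Abcg2 neither mark had a region, and to the right 1 H3K4me1 region of 5.72-fold lay at chr6:58684636-58685889.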
